A study of Mus musculus with 2 samples.

Results

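The cells described here met a rule for splenic type 1 conventional dendritic cells (cDC1s) that held transcripts of the chemokine receptor gene Ccr2. They were 211 of the 6393 cells of the series, 103 of 3308 in sample 1 and 108 of 3085 in sample 2. Of the 211, 32 also held markers of another subset, and for these the data go against the label, as given below. The members were selected on raw values of these same genes: a cell was a member when its raw counts of unique molecular identifiers (UMIs, 1 per captured transcript molecule) reached at least 2 for Ccr2, 5 for Irf8 and 5 for Cadm1, Naaa, Xcr1 and Clec9a together, and stayed below 2 for Siglech, below 2 for Ccr7, below 3 for C1qb and below 6 for Top2a and Mki67 together. The comparison cells met the same rule except that they held no Ccr2 UMI, and they numbered 500 in sample 1 and 440 in sample 2.

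Both samples were spleen cells of wild-type mice enriched on CD11c magnetic beads, on the C57BL/6J background of the study's adult mice, with no treatment named. They carried separate sample tags and were read out as whole-transcriptome single-cell RNA-seq on the BD Rhapsody system. The labels do not say how many mice went into a sample, so with 2 samples every p-value below measures only the spread between these samples. Sample 1 held 46953398 UMIs (median 11869.5 per cell) and sample 2 held 43137746 (median 11241 per cell). The samples shared 0 cell barcodes, and their labels named no difference between them. Their make-up did differ: the gates used below took 51 T cells and 58 B cells in sample 1, and 191 and 149 in sample 2.

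cDC1s are the dendritic cells that take up dying cells and present their antigens on MHC class I to CD8 T cells. They need the transcription factors IRF8 and BATF3, arise from bone marrow precursors that leave through the blood, and complete their differentiation in the spleen, where CD8α, CD103 and Langerin are acquired by resident cells. CCR2 is the receptor for CCL2 and is best known for drawing classical monocytes out of the bone marrow. Many dendritic cell precursors carry it too.

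Ccr2 lies on the forward strand of chromosome 9 (GRCm38, bases 124101950 to 124113557, GENCODE M21 gene model). Among non-cycling cDC1s, 103 of 628 cells (16.4%, exact binomial 95% interval 13.6 to 19.5) in sample 1 and 108 of 571 (18.9%, 15.8 to 22.4) in sample 2 held at least 2 Ccr2 UMIs. These intervals cover counting error only. After each cell was thinned to 8000 UMIs the shares were 12.5% (74 of 594) and 12.7% (69 of 542), and the samples lay within each other's intervals before and after thinning.

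In B cells, which should lack the gene, at least 2 Ccr2 UMIs were found in 0 of 58 cells of sample 1 (a count of 0 allows up to 5.17%) and in 0 of 149 of sample 2 (up to 2.01%), at median depths of 7305 and 6361 UMIs. T cells, some of which express the gene, reached it in 2 of 51 cells (3.92%) and 18 of 191 (9.42%). The members were deeper, with medians of 16248 and 17606 UMIs, but shallower than the Ccr2-negative cDC1s at 19611 and 21365 UMIs. The members were therefore not the deeper of these cDC1s. The share of mitochondrial UMIs was 5.47% and 5.36% in the members and 5.90% and 5.76% in the Ccr2-negative cells.

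The members held a median of 6 Ccr2 UMIs in each sample, with maxima of 33 and 40, and their Ccr2 level was 449 and 463 counts per 1000000 UMIs (CPM). Just inside the threshold, 15 cells of sample 1 and 20 of sample 2 held exactly 2 Ccr2 UMIs. Just outside it, 25 and 23 cells held 1. Few cells thus lay near the threshold compared with the number at 0, as the plot of Ccr2 UMIs per cell shows.

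**Figure D1:**
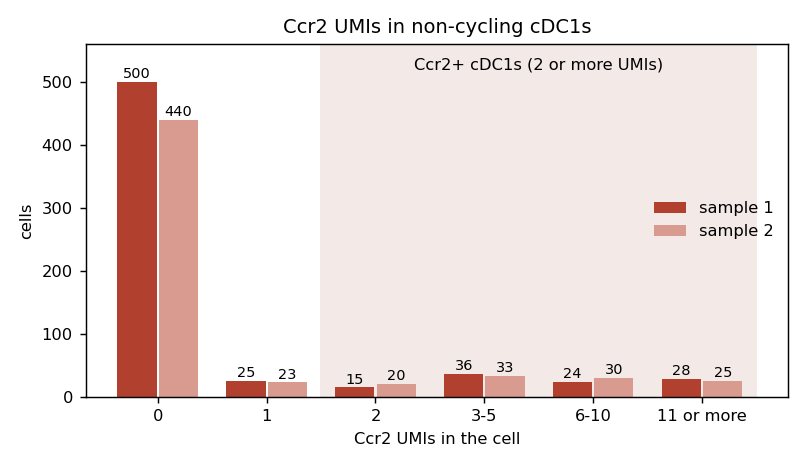
Number of non-cycling cDC1s in each sample (vertical axis, cells) by the number of Ccr2 UMIs they held (horizontal axis). Cells with 0 Ccr2 UMIs numbered 500 and 440, those with 1 numbered 25 and 23, and the members reached up to 33 and 40.

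The genes of the rule are given as a description, since they chose the cells. Irf8, the transcription factor on which cDC1 identity depends, stood at 1937 and 1958 CPM in the members and at 1926 and 1992 in the Ccr2-negative cells, while all cDC2s held 23.1 and 27.3. Naaa, an acid amidase of cDC1 lysosomes, was at 1192 and 1168 CPM in the members and at 1280 and 1370 in the Ccr2-negative cells. Cadm1, an adhesion molecule of cDC1s, was lower in the members, at 662 and 604 against 1187 and 1284 CPM. Xcr1, the receptor for the T-cell chemokine XCL1, was at 789 and 892 against 1063 and 1121 CPM, and Clec9a, the receptor for actin exposed by dead cells, at 1261 and 1180 against 1759 and 1569. The members held less Cadm1, Xcr1 and Clec9a than the Ccr2-negative cells.

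cDC1 markers outside the rule bore on the label as well. Batf3, the partner of IRF8, was at 122 and 97.2 CPM in the members and at 115 and 110 in the Ccr2-negative cells (log2 fold change −0.16 ± 0.12 SE, adjusted p = 0.466). Tlr3, the sensor of double-stranded RNA that marks cDC1s, was at 345 and 317 against 304 and 295 CPM (log2 fold change 0.03 ± 0.08, adjusted p = 0.883). Id2, the inhibitor of E proteins that cDC1s need, was at 1194 and 1241 against 1170 and 1120 CPM (log2 fold change −0.03 ± 0.06, adjusted p = 0.824). A p above the threshold does not show that these levels were alike, but the estimates were close to 0 and both groups held these genes. In cDC2s Batf3 was detected in 50.5% and 50.1% of cells and Id2 in 72.5% and 69.0%, but Tlr3 in 7.56% and 6.09%. Cd8a and Itgae, also cDC1 markers, were lower in the members, at log2 fold changes of −1.28 and −1.12. Of the 20 resident cDC1 genes listed, 8 were lower and 2 higher, against 3.96% and 3.37% of all genes.

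Some members also held markers of another subset. Over 9 genes listed for cDC2s (Sirpa, Clec10a, Cd209a, Mgl2, Clec4a4, Dtx1, Irf4, Itgam and Cd4), 32 of the 211 members held 3 or more UMIs, 14 of 103 (13.6%, exact 95% interval 7.63 to 21.8) in sample 1 and 18 of 108 (16.7%, 10.2 to 25.1) in sample 2. Among the Ccr2-negative cells the share was 7.40% (37 of 500) and 10.7% (47 of 440). The 2 kinds of cell with cDC2-list UMIs were not alike. In the members the median over the list was 14 and 16.5 UMIs, whereas it was 4 in the Ccr2-negative cells of each sample.

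The members with cDC2-list UMIs were not deeper than the other members (medians 14269 and 16740 against 17006 and 17814.5 UMIs). They held less of the cDC1 genes: a median of 14.5 and 32 UMIs over Cadm1, Naaa, Xcr1 and Clec9a against 67 and 66.5, Irf8 at 1108 and 922 CPM against 2058 and 2173, and an Xcr1 UMI in 28.6% and 44.4% of cells against 94.4% and 95.6%. They also held more Ccr2, with medians of 8 and 10 UMIs against 5 and 5. For these 32 cells the data go against the label, and they are called here only by their rule. The other 179 members held cDC1 markers and under 3 cDC2-list UMIs. Scrublet called 3 members of sample 1 and 4 of sample 2 doublets, and all cells were kept in the main comparison.

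The comparison of Ccr2+ with Ccr2-negative cDC1s asks which transcripts go with Ccr2 in cells of otherwise the same gate. Among the genes that rose were those of the cytoskeleton and membrane scaffold (S100a10, Anxa2, Vim and Ahnak), of the interferon-inducible PYHIN family (Ifi203), of the MS4A family (Ms4a6c), of migration and adhesion (Gpr183 and Itgb7) and of DNA replication (Mcm3, Mcm6 and Mcm7). Among the genes that fell were markers of resident splenic cDC1s (Cd8a, Cd207 and Itgae), the apolipoprotein genes Apoe and Apol7c, Serpinb9 and Actn1. Another set, among them Cybb, Zeb2, Sirpb1a, Tmem176a, Csf1r and Cx3cr1, rose in the pooled comparison but was held mostly by the 32 members with cDC2-list UMIs.

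Of 11049 genes tested with edgeR's quasi-likelihood test on UMI sums per sample, 372 (3.37%) were higher and 438 (3.96%) lower in the Ccr2+ cells at a Benjamini-Hochberg adjusted p under 0.05. The median log2 fold change over all genes was 0.0012. Without the cells holding 3 or more cDC2-list UMIs, in both groups, 10649 genes could be tested, and 234 were higher and 387 lower. Of these, 200 and 339 were also called with all cells. That alternative was chosen after the data were seen. Of the named genes, 25 of 45 higher calls and 36 of 39 lower calls remained, and 2 of the higher ones, Mmp12 and Dtx1, could not be tested there. Sirpa and Cd209a were among those that lost their calls. Sirpa, Cd209a and Dtx1 belong to the cDC2 list that chose the removed cells, so the removal itself lowers them. A fit over all cells that took the sample as a block called 520 higher and 694 lower of 11049 genes. These are the background for the list counts given below with the sample as a block. Keeping only cells with fewer than 3 UMIs over the B cell, T cell, NK cell, neutrophil and macrophage lists left 25 and 22 members, and 31 of the named genes reported here lost their call, among them Emb, Ifi27l2a, Ms4a4c, Mcm3, Mcm7, Csf1r, Cd80, Ctsc, Psap, H2-Ab1 and Cd74. Which part the smaller number of cells had in this was not tested.

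**Figure D2:**
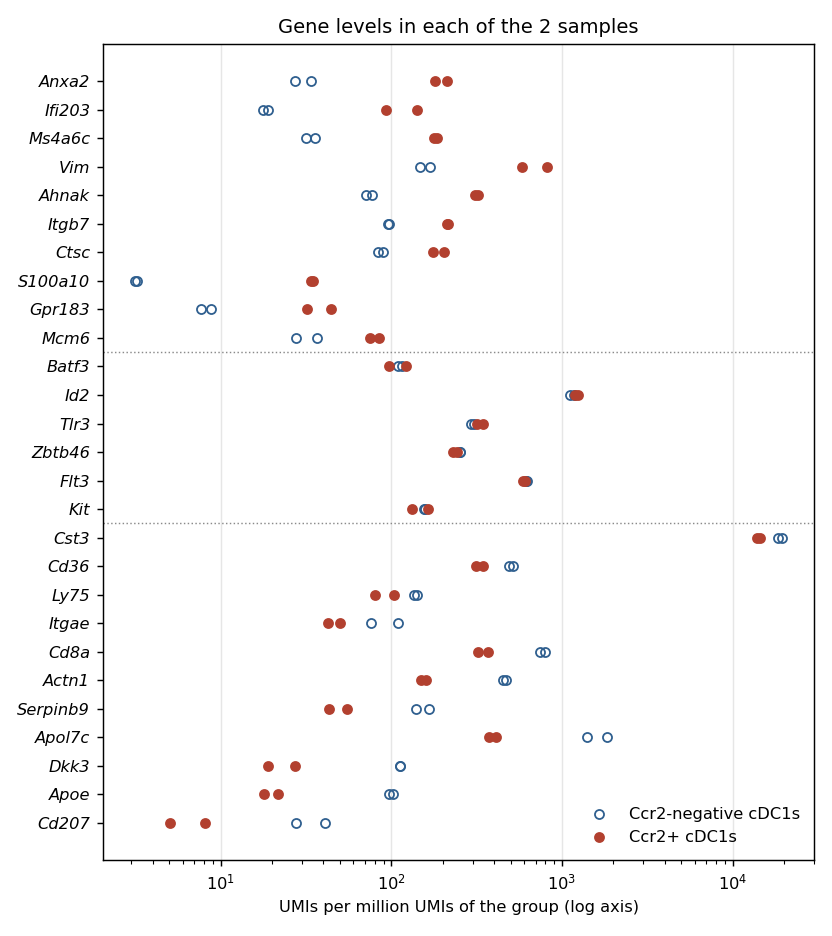
Levels (CPM, log axis) of genes described in the text in the Ccr2+ and the Ccr2-negative cDC1s, 1 point for each of the 2 samples. For Anxa2 the Ccr2+ points lie at 181 and 213 and the Ccr2-negative points at 27.4 and 33.9, while for Apol7c they lie at 410 and 374 against 1842 and 1393.

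Among genes of the cytoskeleton, annexins and S100 proteins, 13 of 24 were higher and 2 lower in the Ccr2+ cells, with a median log2 fold change of 0.53. The shares over all genes, 3.37% higher and 3.96% lower, are the background for this and the list counts that follow. Without the cells of cDC2-list UMIs the numbers were 12 higher and 2 lower of 23, with a median of 0.63. Anxa2, a membrane-binding annexin, was at 181 and 213 CPM in the members and at 27.4 and 33.9 in the Ccr2-negative cells (log2 fold change 2.57 ± 0.14, adjusted p = 1.98e-05). S100a10, its binding partner, was at 34.6 and 33.9 against 3.16 and 3.23 CPM (log2 fold change 3.30 ± 0.24, adjusted p = 9.63e-05). The samples of the groups did not overlap for either gene, which held for 6047 of all 11049 genes tested.

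Vim, which encodes the intermediate filament vimentin, was at 586 and 816 CPM in the members and at 147 and 168 in the Ccr2-negative cells (log2 fold change 2.04 ± 0.14, adjusted p = 8.61e-05). Ahnak, a very large scaffold protein that binds the annexin complex, was at 311 and 322 against 70.7 and 76.9 CPM (log2 fold change 1.98 ± 0.09, adjusted p = 1.29e-05). Both transcripts were spread over most members. Vim was detected in 86.4% and 80.6% of members and in 40.0% and 43.2% of Ccr2-negative cells. Ahnak was detected in 80.6% and 79.6% of members and in 43.8% and 51.1% of Ccr2-negative cells. It was also found in 6.70% and 9.33% of cDC2s, where 10 cells held 67.0% and 65.1% of its UMIs, and in 37.3% and 47.1% of T cells, so neither gives a background level for it. With each cell thinned to 8000 UMIs, Ahnak was found in 73.5% and 65.3% of members and in 30.6% and 34.8% of Ccr2-negative cells.

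The members with cDC2-list UMIs held no more than their share of these transcripts. They held 11.7% and 12.5% of the members' Vim UMIs, 5.22% and 5.82% of Ahnak, and 8.96% and 8.10% of Anxa2, at 13.6% and 16.7% of the cells. Without such cells the log2 fold changes were 2.12 for Vim, 2.12 for Ahnak, 2.66 for Anxa2 and 3.47 for S100a10, each past the threshold. S100a4, a calcium-binding protein of motile cells, behaved otherwise. It was at 37.8 and 42.0 against 11.01 and 4.49 CPM (log2 fold change 2.25 ± 0.35, adjusted p = 0.00508), the 32 members held 78.6% and 79.5% of its UMIs, and without them its log2 fold change was 1.46 with an adjusted p of 0.108. Sample 2 alone gave 2.31 and sample 1 alone 1.42 for it, on the scale of log2(CPM + 5) on which all values of single samples are given. Lgals3, which encodes galectin-3, and S100a11 were the 2 genes of the list that were lower, at log2 fold changes of −1.10 and −0.38. Both were named after their values were seen.

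The PYHIN genes are interferon-inducible genes of a cluster on chromosome 1. Ifi203 was at 93.5 and 142 CPM in the members and at 17.8 and 18.9 in the Ccr2-negative cells (log2 fold change 2.57 ± 0.19, adjusted p = 0.000131), and it remained at 2.66 without the cells of cDC2-list UMIs. Its gene model overlaps that of Mndal, which was at 216 and 212 against 49.7 and 43.1 CPM (log2 fold change 2.09 ± 0.10, adjusted p = 1.29e-05) and was named after its value was seen. Reads shared between these near relatives cannot be told apart here, so the split between the 2 genes is uncertain.

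In the interferon response list 5 of 18 genes were higher and 0 lower, with a median log2 fold change of 0.75 (9 higher with the sample as a block). Irf7, the factor that amplifies type I interferon, was at 71.9 and 93.2 against 47.6 and 46.6 CPM (log2 fold change 0.69 ± 0.14, adjusted p = 0.0199), a call lost at 12000 to 30000 UMIs per cell. Xaf1, an interferon-induced regulator of apoptosis, was at 27.6 and 31.4 against 10.5 and 9.18 CPM (log2 fold change 1.47 ± 0.21, adjusted p = 0.00307). Ifi44 was at 22.7 and 21.8 against 7.85 and 8.97 CPM (log2 fold change 1.28 ± 0.23, adjusted p = 0.00972). Without the cells of cDC2-list UMIs 3 of 14 genes were higher, and these were the 3 genes just named. Ifi27l2a, an interferon-induced gene outside the list, was at 64.9 and 61.3 against 12.3 and 8.97 CPM (log2 fold change 2.45 ± 0.19, adjusted p = 0.000131) and kept its call at 1.82 without these cells.

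The MS4A genes encode 4-pass membrane proteins and lie in a cluster on chromosome 19. Of 7 tested, 4 were higher and 0 lower, with a median log2 fold change of 1.24. Ms4a6c (bases 11469366 to 11482192) was at 184 and 177 CPM in the members and at 35.8 and 31.5 in the Ccr2-negative cells (log2 fold change 2.31 ± 0.11, adjusted p = 1.29e-05). The 32 members held 46.9% and 60.3% of its UMIs, and without the cells of cDC2-list UMIs its log2 fold change was 1.73, still past the threshold. Ms4a4c was at 21.6 and 40.0 against 3.16 and 5.01 CPM (log2 fold change 2.80 ± 0.35, adjusted p = 0.00181; 2.59 without these cells). Ms4a6b was at 36.2 and 39.0 against 16.3 and 13.04 CPM (log2 fold change 1.24 ± 0.19, adjusted p = 0.00462), but at 0.66 with an adjusted p of 0.326 without them. These paralogs share sequence, and the assignment of reads among them is uncertain.

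Of the migration receptors, 4 of 12 tested were higher and 1 was lower. Gpr183, the receptor for oxysterols that places dendritic cells in the bridging channels of the spleen, was at 31.9 and 44.6 CPM in the members and at 8.76 and 7.72 in the Ccr2-negative cells (log2 fold change 2.10 ± 0.22, adjusted p = 0.000829). Gpr183 stood at 2.06 without the cells of cDC2-list UMIs. P2ry14, a receptor for UDP-sugars, was lower by a small amount, at 388 and 341 against 414 and 418 CPM (log2 fold change −0.31 ± 0.08, adjusted p = 0.0498), and it kept this call under 2 of 13 other settings. S1pr1, the receptor that lets cells leave tissue along sphingosine-1-phosphate, was at 0 and 2.03 against 3.06 and 3.86 CPM and did not pass the test (adjusted p = 0.229).

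Of 15 integrins and adhesion genes, 2 were higher and 4 lower, against 3.37% and 3.96% of all genes. With the sample as a block 7 were lower, against 694 of all 11049 genes. Itgb7, the β7 chain that pairs with α4 or αE, was at 214 and 212 against 95.9 and 96.7 CPM (log2 fold change 1.03 ± 0.08, adjusted p = 0.000206). Its partners were lower. Itgae, the αE chain known as CD103, was at 42.7 and 50.1 against 75.9 and 110 CPM (log2 fold change −1.12 ± 0.21, adjusted p = 0.0117). Its gene model overlaps that of Haspin. Itga4, the α4 chain that binds VCAM1, was at 929 and 842 against 1057 and 979 CPM (log2 fold change −0.32 ± 0.07, adjusted p = 0.0221). Itga4 kept this call under 8 of 13 other settings and lost it with library-size scaling (−0.20, adjusted p = 0.115) and at 12000 to 30000 UMIs (−0.24, adjusted p = 0.0881), among others. Icam1 and Pecam1, adhesion molecules of the immunoglobulin family, were lower at log2 fold changes of −0.58 and −0.54, and kept their calls under 11 and 10 of 13 other settings.

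DNA replication genes were higher although the rule had removed cells with many Top2a and Mki67 UMIs. Of 19 S phase genes, 12 were higher and 0 lower, with a median log2 fold change of 1.06 (6 higher with DESeq2). Of 15 G2 and M phase genes 1 was higher and 0 lower. The rule's limit on Top2a and Mki67 takes cells in G2 and M phase out of both groups. The low count for that list is thus partly set by the rule, and the 2 lists cannot be compared here. Mcm6, a subunit of the replicative helicase, was at 75.1 and 84.6 against 27.8 and 36.7 CPM (log2 fold change 1.19 ± 0.17, adjusted p = 0.00328). Mcm3 and Mcm7, subunits of the same helicase, were at log2 fold changes of 1.29 and 1.28, and Stmn1, a microtubule regulator, at 1.25. When only cells without a Top2a or Mki67 UMI and with fewer than 3 UMIs over Mcm5, Uhrf1, Rrm2 and Tyms were kept, 2 of 13 S phase genes were higher and 0 lower. That setting left 59 and 67 members, and it removes S phase cells by its construction.

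A set of higher genes was held mostly by the 32 members. Cybb, the catalytic subunit of the phagocyte oxidase, was at 118 and 145 CPM in all members and at 8.76 and 14.6 in the Ccr2-negative cells (log2 fold change 3.38 ± 0.22, adjusted p = 5.27e-05). The 32 members held 93.2% and 88.5% of its UMIs, at 863 and 747 CPM, while the other members stood at 9.30 and 20.2 CPM, against 4.78 and 5.44 in the Ccr2-negative cells without cDC2-list UMIs. In the test without the cells of cDC2-list UMIs the log2 fold change of Cybb was 1.42 with an adjusted p of 0.0624. The plot of members with and without cDC2-list UMIs shows the same for other genes.

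Zeb2, a repressor that cDC2s and plasmacytoid cells need and that opposes the cDC1 fate, was at 102 and 99.8 against 12.5 and 15.1 CPM (log2 fold change 2.74 ± 0.15, adjusted p = 1.98e-05), and at 0.61 with an adjusted p of 0.228 without these cells. Sirpb1a, a signal-regulatory protein, was at 92.4 and 79.5 against 9.27 and 11.999 CPM (log2 fold change 2.89 ± 0.18, adjusted p = 3.96e-05), and at 0.34 with an adjusted p of 0.645 without them. Both genes lost most of their difference once these cells were left out.

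Csf1r, the receptor for CSF1, was at 62.7 and 99.3 against 23.7 and 24.3 CPM (log2 fold change 1.64 ± 0.20, adjusted p = 0.00161), and at 0.44 with an adjusted p of 0.471 without them. Cx3cr1, the fractalkine receptor, was at 17.8 and 33.4 against 5.61 and 3.65 CPM (log2 fold change 2.35 ± 0.35, adjusted p = 0.00428), and at 0.03 with an adjusted p of 0.985 without them. Csf1r and Cx3cr1 belong to a list of early dendritic cell and progenitor genes, of which 6 of 16 were higher and 0 lower with all cells and 3 of 14 without the cells of cDC2-list UMIs. In that list Tcf4, an E protein of plasmacytoid cells, kept its call (82.2 and 125 against 53.1 and 41.4 CPM, log2 fold change 1.02, and 0.92 without these cells, adjusted p = 0.0138). It lost it without the cells of other-type markers (0.80, adjusted p = 0.284), and its log2 fold change was 1.49 in sample 2 alone and 0.59 in sample 1 alone. Csf1r stood at 1.83 in sample 2 alone and at 1.24 in sample 1 alone, and Cx3cr1 at 2.15 and 1.11. Of the Csf1r UMIs of the Ccr2-negative cells, 1 cell held 132 of 233 in sample 1 and 143 of 233 in sample 2.

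Tmem176a and Tmem176b, ion channels of dendritic cell endosomes whose gene models overlap, stood at log2 fold changes of 2.63 and 2.43 with all cells, and at −0.01 (adjusted p = 0.995) and 0.66 (adjusted p = 0.164) without them. Mmp12, the macrophage elastase, was at 24.9 and 71.9 against 1.43 and 1.04 CPM (log2 fold change 5.16 ± 0.51, adjusted p = 0.000593), with 95.7% and 99.3% of the members' UMIs in the 32 cells. In sample 1 a single cell held 26 of its 46 UMIs, and the log2 fold change of Mmp12 was 3.67 in sample 2 alone and 2.22 in sample 1 alone. Tmem176a stood at 2.77 and 2.02 in these samples, and Tmem176b at 2.77 and 1.89. Lyz1, a lysozyme gene, was at 20.5 and 254 against 19.1 and 13.1 CPM and was high in sample 2 alone: its log2 fold change was 2.99 over both samples, 3.84 without sample 1 and 0.09 without sample 2. Reads of Lyz1 and its near copy Lyz2 may be split unevenly.

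The C-type lectins Clec4a3 and Clec4a1 (log2 fold changes 2.96 and 1.91) and the transcription factor Klf4 (1.64) also lost their calls without these cells. Klf4 was at 64.3 and 136 CPM against 24.6 and 34.7, and the 32 members held 43.7% and 58.6% of its UMIs. Emb, a chaperone of lactate transporters, kept its call: 60.0 and 58.2 against 8.87 and 9.50 CPM, a log2 fold change of 2.57 ± 0.16, and 2.12 without these cells. Beside all of these stands the cDC2 list itself, of which 5 of 9 genes were higher and 0 lower, with a summed level of 127 and 203 CPM in the members, 44.8 and 54.0 in the Ccr2-negative cells and 1739 and 1716 in all cDC2s. None of the 9 genes was at 0. What part foreign transcripts had in these cells was not tested.

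**Figure D3:**
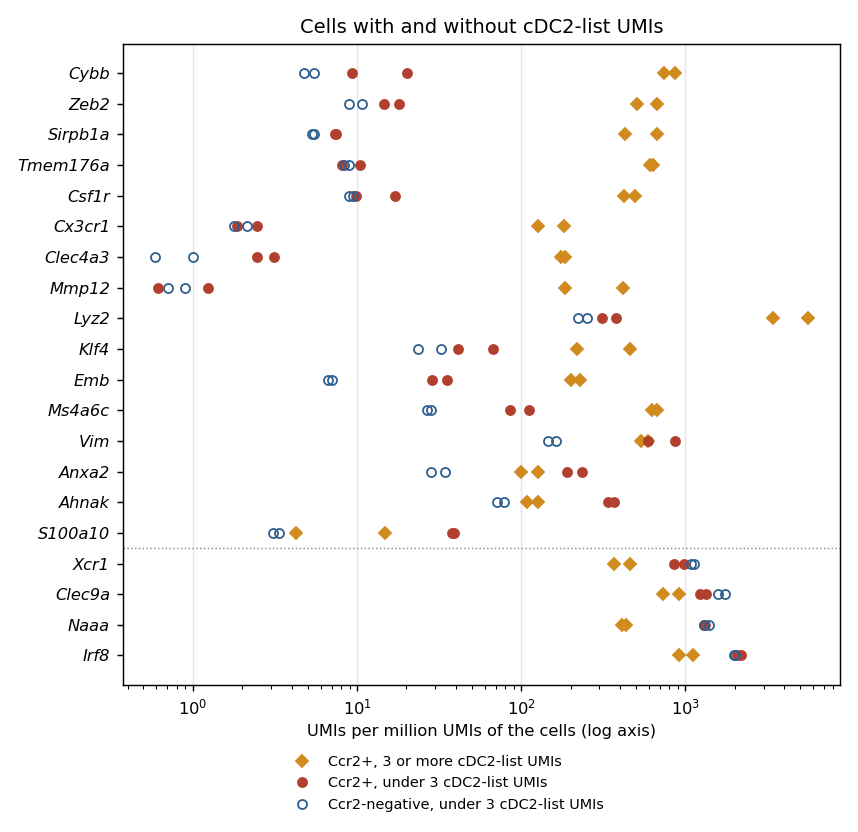
Levels (CPM, log axis) in Ccr2+ cDC1s with 3 or more cDC2-list UMIs (diamonds), in Ccr2+ cDC1s with fewer and in Ccr2-negative cDC1s with fewer, 1 point for each of the 2 samples. Cybb stands at 863 and 747 in the diamonds and at 9.30 and 20.2 in the other Ccr2+ cells, whereas Ahnak stands at 127 and 109 in the diamonds and at 338 and 366 in the other Ccr2+ cells.

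Markers of other cell types were counted as well, against 3.37% of all genes higher and 3.96% lower. Of the monocyte list 3 of 7 genes tested were higher (Lyz2, Csf1r and Ms4a4c), with a summed level of 1596 and 2234 CPM against 1230 and 1120, and 4 and 0 of its 12 genes were at 0 in the members. Ly6c2, which defines classical monocytes, was at 11.9 and 22.8 against 6.01 and 7.83 CPM and did not pass the test (log2 fold change 1.21 ± 0.34, adjusted p = 0.0639). Ly6c2 passed with the sample as a block (1.18, adjusted p = 0.0155), with library-size scaling (adjusted p = 0.0457), at 3 or more Ccr2 UMIs (adjusted p = 0.0394) and without the cells of other-type markers (2.23, adjusted p = 0.0498). Of the 6 B cell genes and 3 T cell genes tested, 0 were called by edgeR or DESeq2 and 0 had an unadjusted p under 0.05. Of 4 mature dendritic cell genes 0 were called by edgeR, 1 had an unadjusted p under 0.05, 1 was called by DESeq2 and 1 was lower with the sample as a block. In the plasmacytoid list 1 of 4 genes was higher and 1 lower. The B cell list summed to 225 and 300 CPM against 244 and 239, and 0 genes of the NK cell list were expressed enough to be tested. In the neutrophil list 1 of 2 genes was higher, and of the macrophage list 1 of 8 was higher and 1 lower. Of the 3 erythroid genes tested 0 were called by either tool and 3 had an unadjusted p under 0.05, while 3 were lower with the sample as a block, with a summed level of 8.11 and 8.10 CPM in the members and 66.5 and 17.4 in the Ccr2-negative cells.

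Without the cells of cDC2-list UMIs 36 of the 39 named lower genes kept their call. In sample 1 the members with such UMIs, 13.6% of the members, held 0 UMIs of Dkk3, Fndc5, Cd207 and Itgae. They held 2.37% of the members' Apol7c UMIs there. Of 20 resident cDC1 genes 8 were lower and 2 higher, with a median log2 fold change of −0.28, and 6 were lower and 3 higher without the cells of cDC2-list UMIs. Cd8a, the chain that gives the splenic cDC1 its classical name, was at 321 and 369 CPM in the members and at 747 and 792 in the Ccr2-negative cells (log2 fold change −1.28 ± 0.08, adjusted p = 5.27e-05; −1.15 without these cells). It was detected in 68.9% and 67.6% of members and in 93.8% and 95% of Ccr2-negative cells, against 6.19% and 4.26% of cDC2s. Cd207, which encodes Langerin, was at 8.11 and 5.06 against 27.6 and 41.0 CPM (log2 fold change −2.50 ± 0.33, adjusted p = 0.00240). The log2 fold change of Cd207 was −2.19 in sample 2 alone and −1.32 in sample 1 alone, and its call was lost without the cells of other-type markers (−1.63, adjusted p = 0.169). It was detected in 5.83% and 5.56% of members against 21.0% and 28.2% of Ccr2-negative cells, and in 0 of 582 and 1 of 493 cDC2s.

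Ly75, the uptake receptor DEC-205, was at 80.0 and 103 against 141 and 136 CPM (log2 fold change −0.71 ± 0.12, adjusted p = 0.00838). Cd36, a scavenger receptor, was at 343 and 313 against 515 and 488 CPM (log2 fold change −0.73 ± 0.07, adjusted p = 0.000665). The samples of the groups did not overlap for Ly75 or Cd36, as was so for 6047 of the 11049 genes tested. Of the whole list of 16 C-type lectins and uptake receptors tested, 6 were higher and 4 lower, with a median log2 fold change of 0.44, and 1 was higher and 4 lower of 13 without the cells of cDC2-list UMIs (median 0.16). Cd24a, a sialoglycoprotein of cDC1s that appears early, went the other way within the list, at 469 and 462 against 327 and 355 CPM (log2 fold change 0.33 ± 0.08, adjusted p = 0.0295). It was named after its value was seen.

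Apoe, the apolipoprotein that is a target of the sterol receptor LXR, was at 17.8 and 21.8 CPM in the members and at 96.4 and 102 in the Ccr2-negative cells (log2 fold change −2.43 ± 0.15, adjusted p = 4.43e-05). Apol7c, an apolipoprotein L gene expressed by cDC1s, was at 410 and 374 against 1842 and 1393 CPM (log2 fold change −2.16 ± 0.12, adjusted p = 1.98e-05). It was detected in 35.0% and 39.8% of members and in 90.2% and 87.5% of Ccr2-negative cells, against 3.92% and 7.85% of T cells (median depths 5733 and 6319 UMIs). Apol7c was thus detected in most Ccr2-negative cells and in a minority of the members.

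Idi1, an enzyme of cholesterol synthesis, was higher in the members, at 57.8 and 49.6 against 28.4 and 19.0 CPM (log2 fold change 1.06). Of the 17 lipid and LXR genes 2 were higher and 4 lower. The list's median was 0.35 with all cells and −0.13 over the 13 genes tested without the cells of cDC2-list UMIs, so its sign differed between the settings.

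Other lower genes belonged to no list. Dkk3, a secreted Dickkopf protein, was at 18.9 and 27.3 against 113 and 112 CPM (log2 fold change −2.39 ± 0.16, adjusted p = 5.27e-05). Actn1, an α-actinin that bundles actin, was at 150 and 161 against 452 and 469 CPM (log2 fold change −1.68 ± 0.08, adjusted p = 1.29e-05). Serpinb9, an inhibitor of granzyme B, was at 43.2 and 55.2 against 140 and 165 CPM (log2 fold change −1.74 ± 0.15, adjusted p = 0.000229), and its relative Serpinb6b was at 69.2 and 115 against 274 and 364 CPM (−1.90 ± 0.21, adjusted p = 0.000912). Reads among serpin paralogs may be shared.

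Fndc5, a membrane protein with a fibronectin domain, and the transcription factors Tcf7l2 and Jdp2 were lower at log2 fold changes of −2.10, −1.46 and −1.67. Hmox1, which encodes heme oxygenase, was at 13.5 and 11.6 against 59.2 and 104 CPM (log2 fold change −2.82 ± 0.35, adjusted p = 0.00165). Its size differed between the samples, at −2.72 without sample 1 and −1.79 without sample 2, while its direction held in each. Jdp2 stood at −1.79 without sample 1 and at −1.01 without sample 2. Dnase1l3, a secreted nuclease for DNA in vesicles and chromatin, was at 1007 and 1287 against 2602 and 3023 CPM (log2 fold change −1.41 ± 0.11, adjusted p = 0.000178) and was named after its value was seen.

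Antigen presentation genes were lower by small amounts. Of 13 MHC class II genes 5 were lower and 0 higher, with a median log2 fold change of −0.27, and of 14 MHC class I genes 3 were lower and 0 higher (5 lower and 1 higher with the sample as a block). H2-Eb1, a class II β chain, was at 6971 and 7233 against 8424 and 8893 CPM (log2 fold change −0.40 ± 0.04, adjusted p = 0.0009). H2-D1, a class I heavy chain, was at 2015 and 2167 against 2514 and 2609 CPM (log2 fold change −0.41 ± 0.06, adjusted p = 0.00259). With scaling by library size alone, which moves the median of all genes to 0.117, 2 class II genes were higher and 3 lower with a median of −0.15, and 1 class I gene was higher and 1 lower. H2-Eb1 (−0.29, adjusted p = 0.00388) and H2-D1 (−0.29, adjusted p = 0.0119) kept their calls there. Cst3, a cystatin that cDC1s express at high level, was at 14439 and 13867 against 18510 and 19462 CPM (log2 fold change −0.54 ± 0.04, adjusted p = 8.61e-05), Psap, the precursor of the saposins, was lower at −0.39, and Ctsc, the protease that activates granule serine proteases, was higher at 1.02 ± 0.10 (175 and 204 against 89.1 and 83.8 CPM).

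Of 19 maturation and costimulation genes 6 were lower and 0 higher, with a median log2 fold change of −0.38. Cd80, a ligand of CD28, was at 68.1 and 86.1 against 111 and 136 CPM (log2 fold change −0.79 ± 0.15, adjusted p = 0.0122). Cd83 was at 526 and 756 against 904 and 1029 CPM (−0.71 ± 0.14, adjusted p = 0.0175), and Cxcl9, a chemokine for CXCR3, at 390 and 616 against 751 and 987 CPM (−0.90 ± 0.19, adjusted p = 0.0211). Cxcl9 lost its call without the cells of cDC2-list UMIs (−0.79, adjusted p = 0.0533) and with DESeq2, as did Cd83 with DESeq2. Relb, an NF-κB subunit, was lower at −0.80, a call lost at 12000 to 30000 UMIs. Mature cells themselves had been removed by the limit on Ccr7.

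Several regulators that mark early dendritic cells or the whole lineage did not pass the test. Flt3, the receptor for the main growth factor of dendritic cells, was at 605 and 591 against 626 and 612 CPM (log2 fold change −0.17 ± 0.06, adjusted p = 0.153). Kit, the receptor for stem cell factor, was at 131 and 164 against 157 and 155 CPM (−0.20 ± 0.11, adjusted p = 0.348). Zbtb46, which marks conventional dendritic cells, was at 241 and 229 against 254 and 254 CPM (−0.23 ± 0.08, adjusted p = 0.119). Of 27 transcription factors 4 were higher and 3 lower with all cells (7 lower with the sample as a block), and 1 higher and 3 lower of 26 without the cells of cDC2-list UMIs. Of 12 Toll-like receptor genes 1 was higher and 0 lower, of 81 ribosomal protein genes 0 were higher and 9 lower, and of 82 nuclear genes of oxidative phosphorylation 0 were higher and 2 lower, against 3.37% and 3.96% of all genes. With library-size scaling 2 ribosomal genes were lower, and with the sample as a block 14 were.

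The levels of several genes moved with the number of Ccr2 UMIs, though not in order through every class. Vim stood at 147 and 168 CPM in cDC1s with 0 Ccr2 UMIs, at 355 and 292 with 1, at 289 and 462 with 2, at 389 and 613 with 3 to 5, and at 782 and 1057 with 6 or more. Cd8a went from 747 and 792 CPM with 0 Ccr2 UMIs to 578 and 554 with 2, 347 and 451 with 3 to 5, and 234 and 256 with 6 or more. Apol7c went from 1842 and 1393 CPM with 0 to 1826 and 605 with 1 and 982 and 933 with 2. It stood at 593 and 255 with 3 to 5 and at 146 and 238 with 6 or more. Itgae was not ordered, at 75.9 and 110 CPM with 0, 23.6 and 22.9 with 1, and 79.4 and 88.7 with 2. Tlr3 stayed between 293 and 350 CPM in all 5 classes of both samples. Cells with 1 or 2 Ccr2 UMIs thus lay between the groups for Vim and Cd8a, and the cells with 6 or more were farthest from those with 0. The class of 6 or more held 10 of the 14 members with cDC2-list UMIs in sample 1 and 12 of the 18 in sample 2. Without such cells in any class, that class stood at 835 and 1131 CPM for Vim, at 241 and 317 for Cd8a and at 180 and 237 for Apol7c, against 147 and 164, 765 and 782, and 1883 and 1405 in the cells with 0 Ccr2 UMIs. Tlr3 then lay between 301 and 383 CPM. These levels are a description, and classes of 15 to 36 cells give them limited precision.

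**Figure D4:**
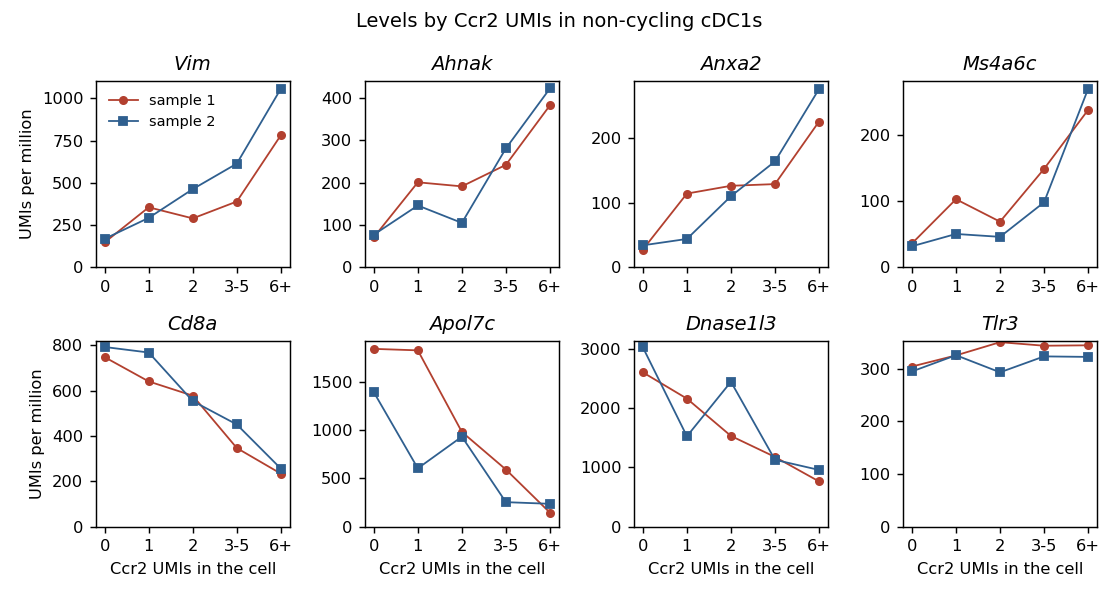
Levels (CPM, linear axis) in non-cycling cDC1s by the number of Ccr2 UMIs per cell (0, 1, 2, 3 to 5, 6 or more), 1 line for each sample. Vim runs from 147 and 168 to 782 and 1057, Apol7c from 1842 and 1393 to 146 and 238, and Tlr3 stays between 293 and 350.

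The same contrast was taken in cDC2s to see which differences go with Ccr2 in either lineage. Ccr2+ and Ccr2-negative cDC2s also differed in genes of their own gate, given here as a description. Cd209a was at 1143 and 1137 against 326 and 334 CPM, Clec10a at 188 and 136 against 7.74 and 2.97, and Mgl2 at 82.4 and 319 against 13.3 and 2.38. Clec4a4 was at 54.9 and 24.96 against 180 and 175 CPM. The cDC2 contrast therefore also compares cells of different subset markers, and the 2 cannot be told apart. At least 2 Ccr2 UMIs were held by 46 of 582 cDC2s (7.90%) in sample 1 and by 34 of 493 (6.90%) in sample 2. In cDC2s 515 of 11054 genes (4.66%) were higher and 502 (4.54%) lower with Ccr2. Of the genes tested in both, the 368 higher with Ccr2 in cDC1s and the 497 higher in cDC2s shared 103, which is 28.0% of the former and 20.7% of the latter, and the lower genes shared 84 (19.3% and 17.3%). Fit as 1 model, the difference between the contrasts passed the threshold for 349 genes (3.16%) that were more positive in cDC1s and 312 (2.82%) that were more negative.

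Of the genes higher with Ccr2 in cDC1s, 133 of 368 (36.1%) passed the test of that difference, 119 of them with the larger change in cDC1s. These genes were chosen by their cDC1 contrast, which is itself a part of that difference. Their share and direction are thus partly set by the choice, and the shares over all genes are no background for them. Anxa2 was at 203 and 250 CPM in Ccr2+ cDC2s and at 91.1 and 91.6 in Ccr2-negative cDC2s, a log2 fold change of 1.30 against 2.57 in cDC1s (difference 1.26 ± 0.21, adjusted p = 0.00266). Gpr183 was not higher with Ccr2 in cDC2s: it was at 182 and 269 CPM in Ccr2+ cDC2s and at 273 and 297 in the others, and the difference from the cDC1 contrast was 2.45 ± 0.28 (adjusted p = 0.000131). S100a10 differed by 2.37 ± 0.29, Ifi203 by 1.84 ± 0.25, and Mcm6, at 29.6 and 8.32 against 49.3 and 44.6 CPM in cDC2s, by 2.39.

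Other genes had the larger contrast in cDC2s. Ahnak was at 359 and 366 CPM in Ccr2+ cDC2s, close to its 311 and 322 in Ccr2+ cDC1s, but at 7.06 and 10.7 in Ccr2-negative cDC2s, a difference of −3.40 ± 0.21 between the contrasts (adjusted p = 4.89e-07). Cd8a had opposite signs: with Ccr2 it was lower in cDC1s and higher in cDC2s (44.3 and 33.3 against 5.05 and 5.36 CPM), a difference of −4.21 ± 0.33 (adjusted p = 5.00e-06). All cDC2s together held only 55 Cd8a UMIs in sample 1 and 50 in sample 2. Cst3 and Psap, lower with Ccr2 in cDC1s, were at 2232 and 1980 against 1292 and 1349 CPM and at 2103 and 2854 against 1090 and 1027 CPM in cDC2s, with differences of −1.23 and −1.63. Vim did not pass the test of the difference (adjusted p = 0.217), with 980 and 918 against 165 and 179 CPM in cDC2s.

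Limiting all cells to 12000 to 30000 UMIs left 11 and 9 Ccr2+ cDC2s and 131 and 66 genes with a called difference. Without the cDC1s of cDC2-list UMIs the difference was called for 200 genes more positive and 292 more negative in cDC1s, and Cybb, Zeb2, Sirpb1a and Mmp12 lost it.

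**Figure D5:**
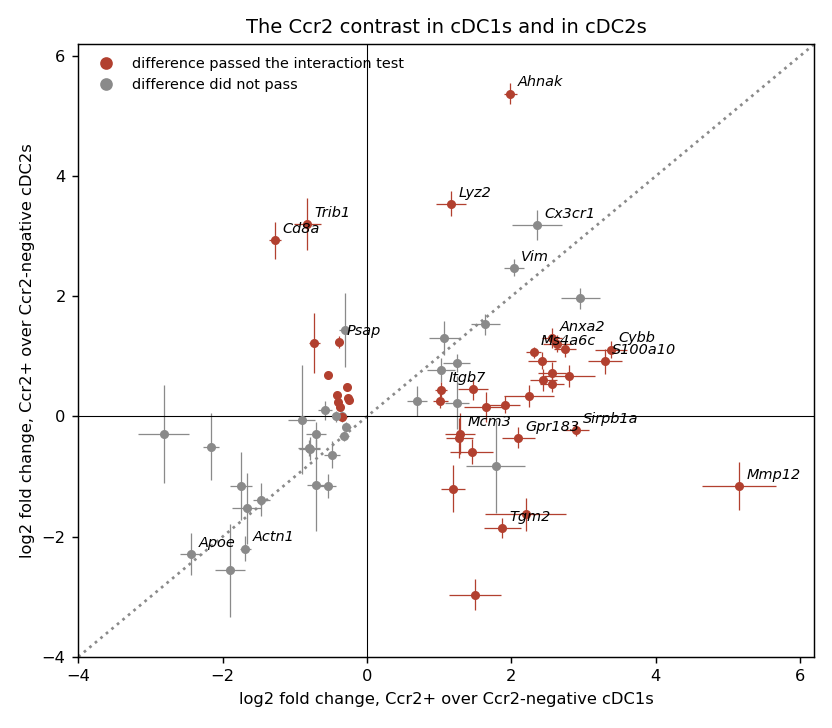
Log2 fold change with Ccr2 in cDC1s (horizontal axis) and in cDC2s (vertical axis) for 72 called genes named by rule, with standard errors as bars, and a dotted line where both are equal. Marked are the 41 genes whose difference between the contrasts passed the test, among them Gpr183 and S100a10 with the larger value in cDC1s and Ahnak with the larger value in cDC2s.

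A larger share of the cycling cDC1s, which the rule leaves out, held Ccr2, though after thinning to 8000 UMIs the intervals overlapped. At least 2 Ccr2 UMIs were found in 44 of 118 cycling cDC1s (37.3%, exact 95% interval 28.6 to 46.7) of sample 1 and in 32 of 103 (31.1%, 22.3 to 40.9) of sample 2, against 16.4% and 18.9% of the non-cycling ones. Thinned to 8000 UMIs, the shares were 23.7% (18 of 76) and 22.4% (17 of 76) against 12.5% and 12.7%. Their exact 95% intervals were 14.7 to 34.8 against 9.91 to 15.4 in sample 1. In sample 2 they were 13.6 to 33.4 against 10.04 to 15.8, so they overlapped in both samples. Fewer cells counted as cycling cDC1s after thinning, 76 in each sample against 118 and 103. Cycling cells made up 29.9% and 22.9% of all Ccr2+ cDC1s and 11.8% and 13.2% of the Ccr2-negative ones. At 12000 to 30000 UMIs these shares were 27.5% (exact 95% interval 18.6 to 37.8) against 8.40% (5.78 to 11.7) in sample 1 and 16.0% (9.22 to 24.95) against 9.22% (6.16 to 13.1) in sample 2, whose intervals overlap. As a level, Ccr2 was at 82.8 and 117 CPM in cycling and at 70.3 and 77.8 in non-cycling cDC1s (log2 fold change 0.39, adjusted p = 0.065), and it passed the threshold with the sample as a block (0.39, adjusted p = 0.00743).

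The genes of the Ccr2 contrast were also read in that comparison, whose backgrounds were 18.9% of 11661 genes higher and 15.9% lower in cycling cells. Of the 369 genes higher with Ccr2 and tested there, 150 were higher and 36 lower in cycling cDC1s. Of the 438 genes lower with Ccr2, 10 were higher and 351 lower. Vim was at 510 and 539 CPM in cycling against 223 and 279 in non-cycling cDC1s, and Apoe at 14.7 and 19.98 against 82.0 and 84.9. Cd8a did not pass the test there, with 692 and 666 against 678 and 722 CPM. Since a larger share of cycling cDC1s held Ccr2, the 2 comparisons are not independent of each other.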

How the data were processed

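CD11c-enriched splenocytes of 2 wild-type samples were profiled as BD Rhapsody whole-transcriptome libraries. The authors deposited raw UMI counts per cell and gene, made per the file headers with the BD Rhapsody WTA Analysis Pipeline 1.12.1 (GRCm38, GENCODE vM19, intronic reads counted, RSEC correction). Intronic reads add unspliced RNA to each value. The submitters' notes also name R 4.2.3 and Seurat 4.3.0.1. No source used here says whether counting was stranded.

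The members and gene lists were chosen with earlier results of these data known. Cells were gated on raw UMIs and summed per sample and group. CPM are over all genes of a sum. The 11 genes of the rule were left out before the fit, as were those of the cDC2 gate in the comparison with cDC2s (Sirpa, Clec10a, Cd209a, Clec4a4 and Mgl2 together at least 5 UMIs, H2-Ab1 at least 20, the 4 cDC1 genes below 2). Sums were fitted with edgeR 4.0.16 in R 4.3.3 (quasi-likelihood test, TMM, filterByExpr, Benjamini-Hochberg over all genes tested, threshold 0.05), and the script was tested on simulated data. Errors of log2 fold changes are standard errors, with n = 2 sums a group. Replicate sums differed by more than sampling noise (chi-square per degree of freedom 2.43 and 4.25). Both groups come from the same 2 samples, so the numbers pair them, and deviations correlated at 0.127 between the groups. The block was an alternative.

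The genes named are the 10 of largest change in each direction among called genes of the same sign in both samples at 50 CPM or more, up to 4 called genes of each of 29 lists at 20 CPM or more, a set of cDC1 genes given in every case, and the 5 of largest difference from cDC2s in each direction. Others are marked as named after their values were seen. Alternatives were DESeq2 1.42.0, library-size scaling, no filter, the block, single samples, the study's cell filters (2928 and 2723 cells kept), other Ccr2 thresholds, a depth window, Scrublet in scanpy 1.11.5 (35 and 27 cells called doublets), removal of cells with other markers, a stricter gate and removal of cycling cells. T cells held at least 3 UMIs over Cd3e, Cd3d and Cd3g. Intervals of shares are exact binomial (scipy 1.17.1, Python 3.11.15). Coordinates and overlaps are from GENCODE M21 on GRCm38. Some genes are not reported here.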

Additional observations from a re-analysis of the deposited data

Results flagged for a closer look

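The test of the difference between the Ccr2 contrast in cDC1s and that in cDC2s, in 1 edgeR model with Benjamini-Hochberg adjusted p under 0.05, singled out 41 of the called genes reported here, 27 with the more positive contrast in cDC1s and 14 with the more negative one. The genes were called by the cDC1 contrast, which is a part of this difference, so their number and direction partly follow from that choice. The values are log2 differences, cDC1 contrast minus cDC2 contrast, over 2 samples.

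Scaffold, annexin and S100 genes differed in both directions. S100a10 stood at 2.37, S100a4 at 1.90 and Anxa2 at 1.26, and Ahnak at −3.40. The log2 fold change of Ahnak with Ccr2 was 1.98 in cDC1s and 5.37 in cDC2s, so it rose in both.

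Among genes of migration and adhesion, Gpr183 stood at 2.45 and Itgb7 at 0.58. Interferon-inducible genes were more positive in cDC1s: Ifi203 at 1.84, Ifi27l2a at 1.83 and Xaf1 at 1.01. So were the helicase genes Mcm6 at 2.39, Mcm7 at 1.63 and Mcm3 at 1.57, and the MS4A genes Ms4a4c at 2.12 and Ms4a6c at 1.24. Emb stood at 2.01, Lair1 at 2.04, Ctsc at 0.75, Gm14548 at 3.82 and Tgm2, which encodes a transglutaminase, at 3.73. Of the genes given so far, Lair1, Gm14548, Tgm2 and S100a4 lost their cDC1 call without the cells of cDC2-list UMIs. For Lair1, Gm14548 and Tgm2 the log2 fold changes were then 1.25, 2.41 and 0.82 (edgeR adjusted p = 0.128, 0.0926 and 0.395).

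Other genes that lost their cDC1 call, or could not be tested, without the cells of cDC2-list UMIs were more positive in cDC1s as well. Mmp12 stood at 6.31, Dtx1 at 4.46, Sirpb1a at 3.11, Cybb at 2.26, Clec4a1 at 1.71, Zeb2 at 1.62, Tmem176b at 1.495, Klf4 at 1.477 and Tmem176a at 1.41.

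Genes of resident cDC1s and of presentation were more negative in cDC1s. Cd8a stood at −4.21, Cd36 at −1.96, Psap at −1.63, Cst3 at −1.23, H2-D1 at −0.77, H2-Eb1 at −0.65, Cd74 at −0.59 and B2m at −0.33. Trib1, a pseudokinase that targets C/EBPα, stood at −4.04 and Lyz2 at −2.38. The ribosomal genes Rps28, Rplp1 and Rps20 stood at −0.77, −0.53 and −0.52.

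Without the cDC1s of cDC2-list UMIs 30 of the 41 differences passed the threshold. With all cells limited to 12000 to 30000 UMIs, which leaves 11 and 9 Ccr2+ cDC2s, 29 of the 41 did. The cDC2 contrast also sets cells of different subset markers against each other.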

How the results depend on the processing

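The first comparison was recomputed under 15 other settings, and 31 of the 84 named genes with a call kept it in every setting that gave them a test. The number of higher genes (372) was 232 with DESeq2, 579 with library-size scaling, 206 with no filter, 79 without cells of other-type markers (25 and 22 members left) and 234 without cells of cDC2 markers, the last chosen after the data were seen. The number of lower genes (438) was 288 with DESeq2, 288 with library-size scaling and 156 without cells of other-type markers. Library-size scaling thus gave 66.8% higher calls against 45.9%. With the sample as a replicate block 520 genes were higher and 694 lower, and Gm14548 lost its call (adjusted p = 0.0558). The block also took Ccr2 in cycling cells past the threshold (0.39). Single samples gave 0.22 to 0.56 for it, as values with no test, and every named gene with a call kept its direction in each single sample.

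At 12000 to 30000 UMIs the difference from cDC2s was called for 131 genes in the positive and 66 in the negative direction, and the cDC2 contrast for 98 higher and 185 lower. Without cells of cDC2 markers the positive differences numbered 200. Signs turned, without cells of cDC2 markers, for Tmem176a (−0.0054) and Sirpa (−0.16), and in the difference from cDC2s for Zeb2 (−0.51), Tmem176a (−1.22) and Tmem176b (−0.27). Sirpa belongs to the cDC2 list whose UMIs chose the removed cells, so the removal itself lowers it. Dtx1 turned at 12000 to 30000 UMIs (−2.56, and −0.59 in the difference) and without Scrublet doublets (−1.92), and Ly6c2 at 12000 to 30000 UMIs in the difference (4.24). Apart from fewer cells and genes in the smaller sets, the cause was not tested. The share of Ccr2+ cells was 20.4% and 22.9% at 1 or more Ccr2 UMIs, 15.4% in sample 2 at 3 or more, and 12.5% and 12.7% when thinned.

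Limits: there are 2 samples of 1 group, of an unknown number of mice. The 211 members carry few UMIs of low genes, so single cells can decide a level. A few cells held much of a gene in the Ccr2-negative cells too, as for Hmox1 and Csf1r. Lyz1 rests on sample 2. The fold change differed by over 1.5 times between the single samples for 16 named genes, with Lair1 (0.77 without sample 1, 1.47 without sample 2), Lyz2 (1.72 and 0.71), Klf4 (1.82 and 1.23), Cd209a (2.46 and 1.14) and Sirpa (1.54 and 2.17) beside those given above. How reads were split among paralogs and overlapping genes was not tested.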

Other observations

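Some further genes outside the rule for naming, chosen after their values were seen, moved with Ccr2 in cDC1s. Fcer1g, the signalling chain shared by Fc receptors, was at 225 and 268 CPM in Ccr2+ and at 58.6 and 54.6 in Ccr2-negative cDC1s (log2 fold change 2.01 ± 0.11, edgeR adjusted p = 1.98e-05), and at 1.45 without the cells of cDC2-list UMIs. Klrd1, which encodes CD94, was at 24.9 and 32.9 against 3.57 and 5.53 CPM (2.55 ± 0.29, adjusted p = 0.00119), and at 2.88 without those cells. Fgfr1, a fibroblast growth factor receptor, was at 49.2 and 39.5 against 14.2 and 13.3 CPM (1.57 ± 0.18, adjusted p = 0.00113) and at 1.67 without them. In cDC2s Fgfr1 was higher with Ccr2 too, at 65.5 and 55.5 against 12.1 and 14.9 CPM, and the test of the difference between the contrasts was not passed (adjusted p = 0.328).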
